A study of Mus musculus with 18 samples.

Results

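Circular RNAs made from chromosome 2 around Ifih1 were described in whole mouse brain. Every circle with both ends between 52400000 and 72500000 of chromosome 2 (GRCm39) was taken from the Illumina tables, and circles assigned to Ifih1 were left out. This gave 2097 circles of the 208914 listed in the genome, and the same window held 1265 of the 166212 circles read on Oxford Nanopore (ONT). Membership is set by position.

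The brains came from male mice of 3 to 4 months on a C57BL/6J background, in 3 genotypes. Adar1-2KO mice were labelled Adar1E861A/E861A, Ifih-/-, Adar2-/- and Gria2R/R, so they combined a catalytically inactive Adar1, a deletion at Ifih, a deletion of Adar2 and the R form of Gria2. Adar2KO mice carried only Adar2-/- and Gria2R/R, and wild type mice carried none of these alleles. Each genotype had 3 replicates per platform, of which 9 Illumina libraries and 8 ONT libraries were used, since the ONT library of wild type replicate 1 was not analysed here. Adar1-2KO differed from Adar2KO at both Adar1 and Ifih. Effects of these alleles, and of any neighbouring DNA that came with them, cannot be told apart here. In whole brain, fewer cells of a type and less RNA per cell cannot be told apart either.

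Circular RNAs form when the 3′ end of an exon is spliced back to the 5′ end of the same or an earlier exon, and reads across this back-splice identify them. The process competes with linear splicing and is favoured by inverted repeats in the flanking introns, which pair into double-stranded RNA. ADAR1 and ADAR2 change adenosine to inosine in such RNA. Ifih1 encodes MDA5, a cytoplasmic sensor of double-stranded RNA, and its loss lets mice with inactive ADAR1 survive. Brain makes many circles from genes of neurons and synapses.

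The back-splice junctions of the circles that the results turn on are shown first, because the reads counted below are the reads that cross them. Each line gives the last 25 bases of the circle's final exon in lower case, joined to the first 25 bases of its first exon in capitals, 5′ to 3′ on the gene's strand. The exon chains read on ONT were matched by exon and intron lengths to transcripts of GENCODE M21 (GRCm38), from which the letters were taken. Positions are on GRCm39, as in the tables.
Tanc1 exons 2 to 4, chr2:59477113-59555193, plus strand: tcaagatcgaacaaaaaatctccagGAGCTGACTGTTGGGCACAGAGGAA
Rbms1 exons 3 to 6, chr2:60610075-60628086, minus strand: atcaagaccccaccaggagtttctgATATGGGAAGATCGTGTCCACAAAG
Upp2 exons 2 to 7, chr2:58645370-58670160, plus strand: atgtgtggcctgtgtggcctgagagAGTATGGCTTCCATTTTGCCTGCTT
Metap1d exons 2 to 5, chr2:71337129-71342512, plus strand: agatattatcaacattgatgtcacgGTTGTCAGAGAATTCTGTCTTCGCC
Stk39 exons 2 to 5, chr2:68221258-68240485, minus strand: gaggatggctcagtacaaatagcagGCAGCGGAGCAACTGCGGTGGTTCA
Ubr3 exons 24 to 27, chr2:69808063-69819240, plus strand: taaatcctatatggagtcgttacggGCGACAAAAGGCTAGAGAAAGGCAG
Tlk1 exons 2 to 3, chr2:70600348-70617339, minus strand: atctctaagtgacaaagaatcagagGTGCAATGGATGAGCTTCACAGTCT
Galnt13 exons 3 to 5, chr2:54744614-54747977, plus strand: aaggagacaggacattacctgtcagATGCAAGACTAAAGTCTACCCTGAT
Kcnh7 exons 4 to 6, chr2:62667410-62681122, minus strand: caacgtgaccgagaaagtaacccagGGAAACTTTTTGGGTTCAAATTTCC

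Of the 2097 circles, 1561 (74.4%) were exon type in the authors' annotation, 370 (17.6%) intron type, 140 intergenic and 26 antisense. In the whole genome the shares were 73.9% exon type and 14.2% intron type. The circles of the interval had 96 host names and a median genomic span of 17876 bases, against 11085 bases over all circles. They were unevenly detected: 1083 (51.6%) were listed in 1 Illumina library, and 104 in every one. A circle was tested where at least 3 libraries had at least 5 back-splice reads, which 402 of the 2097 passed. Low circles passed only through the libraries in which they were high, so counts over the 402 describe those circles alone.

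The libraries held between 1516772 and 4308264 back-splice reads on Illumina and between 186594 and 673705 circle reads on ONT. Adar1-2KO replicate 3 stood apart. It had the most Illumina back-splice reads and the fewest listed circles, 21736, and its rank correlation with other Illumina libraries was 0.444 to 0.468, against 0.549 to 0.643 among those others. In it 56.5% of the 402 tested circles had no read, against 10.7% to 20.4% in the other 8 libraries. Several results below are therefore also given without it, and the others rest on all libraries. Circles of a list of 10 neuronal host genes summed to 37967 ± 2547 CPM (reads scaled to TMM-corrected library size) in Adar1-2KO, 36009 ± 1684 in Adar2KO and 38165 ± 2583 in wild type (SD, n = 3 each). A cerebellar list, with circles from 5 of its 6 genes, summed to 700 ± 357 in Adar1-2KO, 1323 ± 177 in Adar2KO and 1064 ± 90 in wild type, and an endothelial list of 6 genes to 60.8 ± 22.2 in Adar1-2KO, 26.8 ± 4.5 in Adar2KO and 32.9 ± 3.7 in wild type. A list of oligodendrocyte lineage genes lay at 397 to 536 CPM in Adar1-2KO, 353 to 444 in Adar2KO and 331 to 382 in wild type, above wild type without overlap in Adar1-2KO. A striatal list lay at 543 to 831 in Adar1-2KO, 426 to 540.2 in Adar2KO and 419 to 555 in wild type. A list of ependyma and choroid plexus lay at 525 to 979 in Adar1-2KO, 414 to 570.5 in Adar2KO and 791 to 958 in wild type, and an astrocyte list at 423 to 621 in Adar1-2KO, 566 to 626 in Adar2KO and 520.3 to 562 in wild type, so that in both Adar2KO and wild type did not overlap. A microglial list overlapped in all comparisons. The part of these cell types in the results was not tested.

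The share of all circular RNA that came from the whole interval differed between genotypes by less than the spread of the libraries. On Illumina its circles took 0.905% ± 0.087 of all back-splice reads in Adar1-2KO, 0.886% ± 0.066 in Adar2KO and 0.893% ± 0.044 in wild type (SD, n = 3 each). On ONT the shares were 0.966% ± 0.064 in Adar1-2KO, 0.942% ± 0.080 in Adar2KO (n = 3 each) and 0.960% ± 0.0023 in wild type (n = 2). Circles within 5 Mb of Ifih1 took 0.241%, 0.259% and 0.242% of Illumina reads in Adar1-2KO, 0.273%, 0.232% and 0.272% in Adar2KO, and 0.292%, 0.281% and 0.279% in wild type. Every Adar1-2KO library and every Adar2KO library was below every wild type library, and Adar1-2KO and Adar2KO overlapped with each other. With CIRI2 these shares were 0.264% and 0.254% in Adar1-2KO replicates 2 and 3, 0.293%, 0.253% and 0.293% in Adar2KO, and 0.310%, 0.286% and 0.305% in wild type. On ONT the ranges of Adar1-2KO and wild type overlapped. A few genes carried most of the interval's reads. Stk39, a kinase that regulates ion cotransporters, gave 18.9% of the interval's Illumina back-splice reads, Ubr3, a ubiquitin ligase, 16.1%, and Tlk1, a kinase of chromatin assembly, 14.7%.

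The most abundant circle of the interval came from Stk39 exons 2 to 5. It had 2994, 2219 and 5970 Illumina reads in Adar1-2KO, 2373, 2203 and 3004 in Adar2KO, and 3394, 2347 and 1459 in wild type. Scaled to library size these were 1175 ± 321 CPM in Adar1-2KO, 1020 ± 45 in Adar2KO and 1077 ± 91 in wild type, and the ranges overlapped. Its log2 fold change was 0.13 ± 0.19 (SE) in Adar1-2KO against wild type, and -0.11 without Adar1-2KO replicate 3. The Ubr3 circle of exons 24 to 27 had 598 ± 40 CPM in Adar1-2KO, 562 ± 32 in Adar2KO and 537 ± 88 in wild type, with overlapping ranges and a log2 fold change of 0.16 ± 0.21 (SE) in Adar1-2KO against wild type.

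The Tlk1 circle of exons 2 to 3 had 3480, 0 and 3696 Illumina reads in Adar1-2KO, 2367, 1735 and 3805 in Adar2KO, and 2262, 1526 and 1542 in wild type. The 0 of Adar1-2KO replicate 2 stood beside 189 ONT reads of the same circle, so Illumina missed it in that library. Galnt13 encodes an enzyme that starts mucin-type glycosylation in neurons. Its circle of exons 3 to 5 had 739, 556 and 2008 Illumina reads in Adar1-2KO, 482, 361 and 507 in Adar2KO, and 726, 478 and 282 in wild type. On ONT the same circle had 58, 47 and 136 reads in Adar1-2KO, 35, 30 and 44 in Adar2KO, and 10 and 17 in wild type, with a log2 fold change of 1.37 ± 0.41 (SE) against wild type that did not pass (edgeR adjusted p = 0.481). In CPM on ONT that was 224 ± 42 in Adar1-2KO, 118 ± 20 in Adar2KO (n = 3 each) and 86.8 ± 35.4 in wild type (n = 2), and Adar1-2KO lay above both without overlap. On Illumina Adar1-2KO lay above Adar2KO without overlap, and overlapped with wild type. Scn2a encodes a neuronal sodium channel, and its circle at chr2:65518662-65520676 had 137 ± 29 CPM in Adar1-2KO, 148 ± 18 in Adar2KO and 145 ± 1.6 in wild type, with overlapping ranges.

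Among single circles, 1 of the 402 passed in Adar1-2KO against wild type and it fell; the rate over the genome was 0.0627% of 38297 tested (edgeR quasi-likelihood test, Benjamini-Hochberg over all tested circles at 0.05). No circle passed in Adar1-2KO against Adar2KO or in Adar2KO against wild type, where 0.0209% passed genome-wide in each. At an unadjusted p under 0.05 stood 49 circles of the interval (14 higher, 35 lower, 12.2%, against 6.74% of all tested) in Adar1-2KO against wild type, 39 (9.70%, against 6.38%) in Adar1-2KO against Adar2KO, and 8 (1.99%, against 1.82%) in Adar2KO against wild type. With DESeq2 the counts past the adjusted threshold were 5 (0.499% genome-wide) in Adar1-2KO against wild type, 5 (0.478%) in Adar1-2KO against Adar2KO and 0 (0.0914%) in Adar2KO against wild type. The 3 comparisons share their groups of libraries, so these counts are not independent. The median log2 fold change in Adar1-2KO against wild type was -0.27 in the interval and -0.26 over all tested circles.

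**Figure D1:**
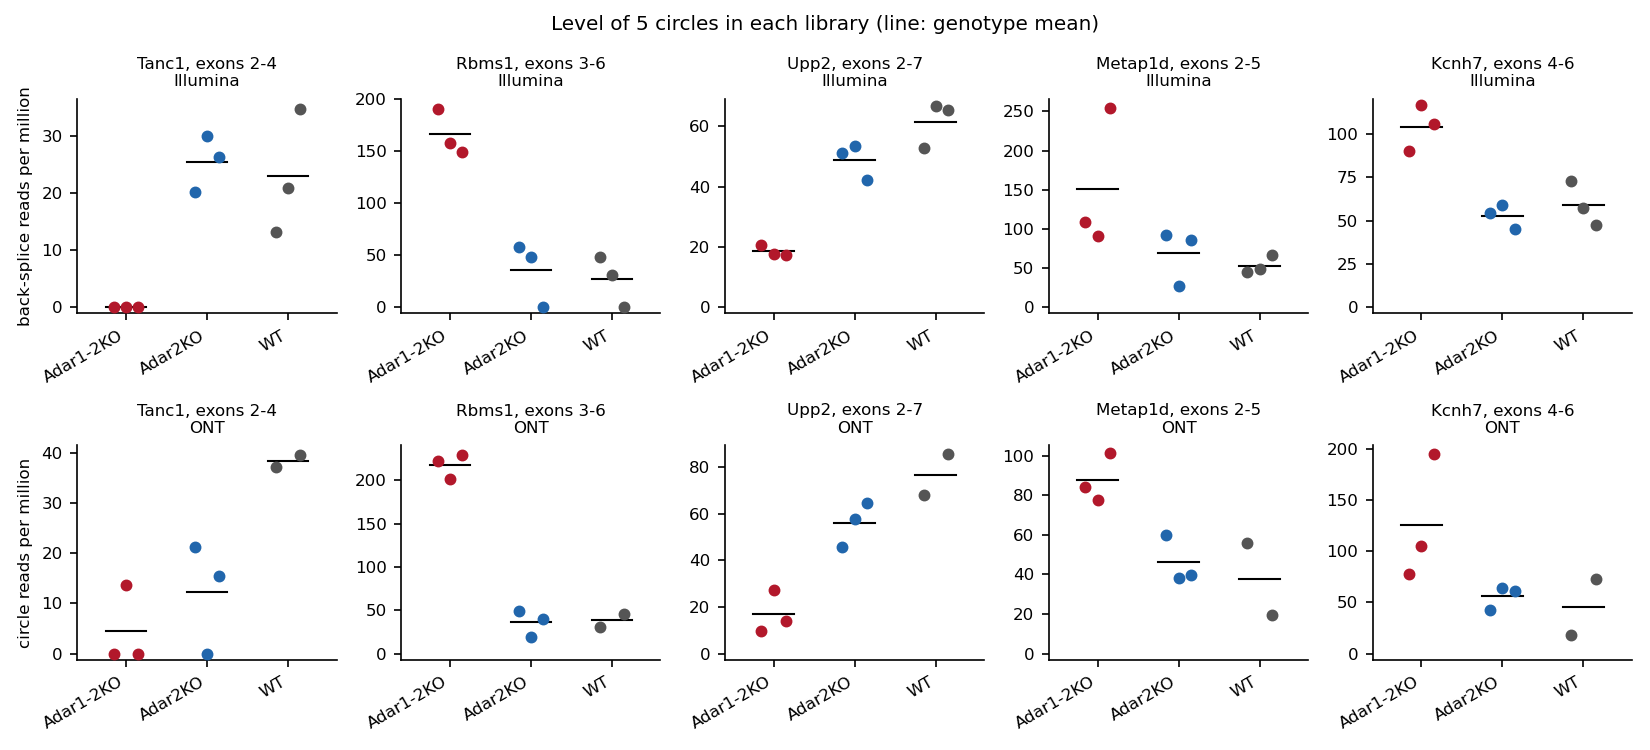
Level of 5 circles in each library, in CPM of TMM-scaled library size, on Illumina (top) and ONT (bottom); points are libraries and lines are genotype means. The 3 Adar1-2KO libraries sit at 0 for the Tanc1 circle on Illumina, and above every other library for the Rbms1 circle and below every other library for the Upp2 circle on both platforms.

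The circle that passed was from Tanc1, which encodes a scaffold protein of the postsynaptic density. It joins exon 4 back to exon 2 and lies 2.951 Mb before Ifih1. It had 0, 0 and 0 Illumina reads in Adar1-2KO, 49, 65 and 74 in Adar2KO, and 39, 44 and 52 in wild type. The Adar1-2KO libraries were empty and the ranges of Adar2KO and wild type overlapped. Against a floor of 3 reads over the 3 empty libraries, its Illumina reads were at least 62.8-fold lower in Adar1-2KO than in wild type (edgeR adjusted p = 0.0494). They were at least 77.6-fold lower than in Adar2KO (edgeR adjusted p = 0.0645). These bounds take the Illumina zeros as true counts, but ONT read the circle 3 times in Adar1-2KO replicate 2. In Adar2KO against wild type its log2 fold change was 0.16 ± 0.90 (SE). With Adar1-2KO replicate 3 left out the adjusted p was 0.0249 against wild type and 0.0341 against Adar2KO.

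The call depended on which libraries entered. The adjusted p against wild type was 0.0994 on leaving out Adar1-2KO replicate 1, 0.0971 on leaving out Adar1-2KO replicate 2, 0.153 to 0.162 on leaving out an Adar2KO library and 0.15 to 0.235 on leaving out a wild type library, with fitted log2 fold changes between -9.13 and -8.53 in these fits. Among libraries sequenced mainly on the most common flow cell (Adar1-2KO replicate 2, Adar2KO replicate 3 and all of wild type) the adjusted p was 0.232; there Adar1-2KO was 1 library, assumed to vary like the wild type libraries. The flow cell of Adar1-2KO replicate 1 was not known. The other Illumina caller, CIRI2, gave the circle 0 and 0 reads in Adar1-2KO replicates 2 and 3, 169, 152 and 247 in Adar2KO and 164, 159 and 149 in wild type. In the authors' deposited table of Adar1-2KO against wild type its log2 fold change was -6.38 with an adjusted p of 0.0201, and 2 of the interval's 1640 circles and 54 of all 160909 circles in that table were under 0.05.

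On ONT the same Tanc1 circle was present but sparse. It had 0, 3 and 0 reads in Adar1-2KO, 6, 0 and 5 in Adar2KO, and 6 and 6 in the 2 wild type libraries. The ranges of Adar1-2KO and Adar2KO overlapped. The ratio of summed ONT reads, scaled to library size, was 0.243 against Adar2KO (95% interval of counting error alone 0.0436 to 0.921). Against wild type it was 0.0760 (0.0138 to 0.281). Both falls were smaller than the Illumina bounds, and the reads were few. The log2 fold change was -3.16 ± 1.87 (SE) against wild type (edgeR adjusted p = 0.753) and -1.54 ± 1.71 against Adar2KO (adjusted p = 0.858).

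The missing Illumina reads shared an exon edge. Exon 2 of Tanc1 spans chr2:59477113-59477216, 104 bases, and is 5′ untranslated in the matched transcript. 7 circles listed on Illumina begin at its 5′ edge, among them the circle that passed. Together they had 0, 0 and 0 reads in Adar1-2KO, 86, 82 and 115 in Adar2KO, and 97, 96 and 60 in wild type. CIRI2 gave the same 7 circles 0 and 0 reads in Adar1-2KO replicates 2 and 3, 259, 213 and 335 in Adar2KO and 293, 245 and 183 in wild type.

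Circles that end at the 3′ edge of exon 2 were also fewer. The 4 of them had 31, 7 and 0 reads in Adar1-2KO, 100, 28 and 163 in Adar2KO, and 52, 48 and 89 in wild type, so the reads of Adar1-2KO replicate 1 and Adar2KO replicate 2 overlapped. The largest, at chr2:59474702-59477216, had 0, 7 and 0 reads in Adar1-2KO, 96, 28 and 140 in Adar2KO and 37, 39 and 84 in wild type, and did not pass (adjusted p = 0.718 and 0.764). Adar1-2KO replicate 1 instead had 23 reads of a circle that starts slightly upstream, at 59474668, and ends at the same edge.

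The 46 circles that use neither edge of exon 2 had 114, 105 and 358 reads in Adar1-2KO, 122, 136 and 129 in Adar2KO, and 164, 85 and 71 in wild type. The high value of Adar1-2KO replicate 3 came from 13 circles that span the exon, with 18, 9 and 337 reads in Adar1-2KO, 21, 18 and 49 in Adar2KO and 36, 25 and 31 in wild type. The other 33 circles had 96, 96 and 21 reads in Adar1-2KO, 101, 118 and 80 in Adar2KO and 128, 60 and 40 in wild type. ONT still read back-splices at the 5′ edge of exon 2 in each Adar1-2KO library. Circles whose ONT exon chain holds exon 2 had 2, 3 and 6 reads in Adar1-2KO, 13, 0 and 10 in Adar2KO, and 6 and 8 in wild type. There were 4 such circles, and all 4 begin at the 5′ edge. A 0 on Illumina was therefore not an absence of this back-splice.

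**Figure D2:**
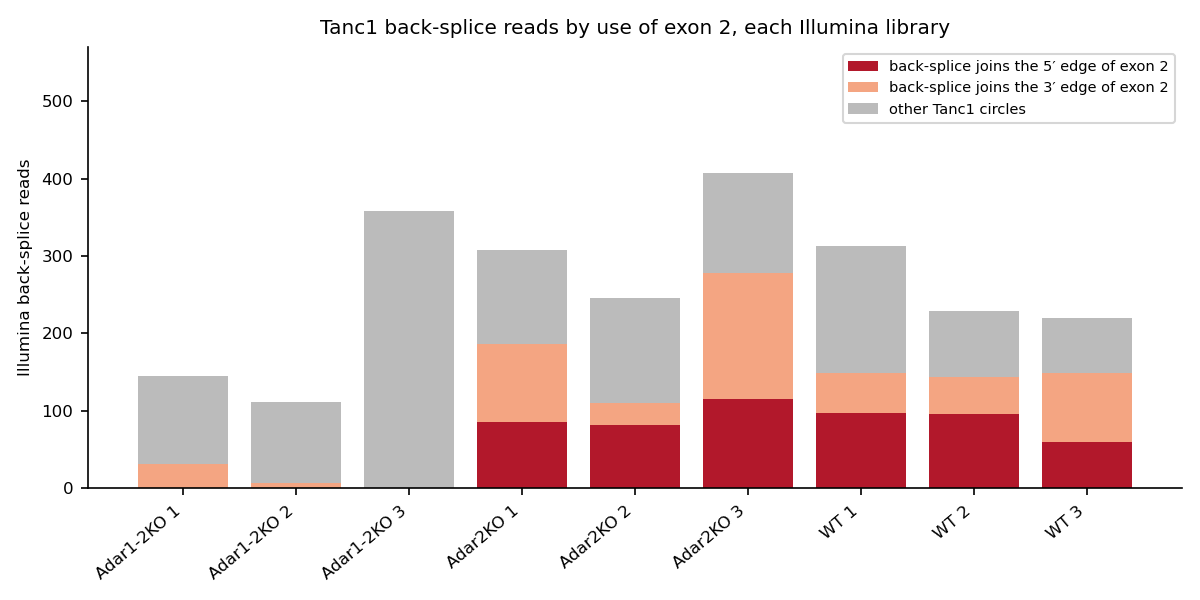
Illumina back-splice reads of Tanc1 in each library, stacked by whether the back-splice joins the 5′ edge of exon 2, the 3′ edge of exon 2 or neither. The 5′ edge has 0 reads in each Adar1-2KO library and 60 to 115 in each of the 6 other libraries.

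Summed over all circles, Tanc1 had 145, 112 and 358 reads in Adar1-2KO, 308, 246 and 407 in Adar2KO, and 313, 229 and 220 in wild type. Scaled to library size these sums were lower in every Adar1-2KO library than in every library of the other genotypes, with 60.7 ± 24.8 CPM in Adar1-2KO, 120 ± 13 in Adar2KO and 118 ± 24 in wild type. The host sum did not pass, with a log2 fold change of -0.95 ± 0.34 (SE) against wild type (adjusted p = 0.55).

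Tanc1 was 1 of several genes with circles missing from the Illumina tables of Adar1-2KO alone. Of 223 circles of the interval listed in all 6 Adar2KO and wild type libraries, 13 (5.83%) were listed in no Adar1-2KO library, against 1.91% over the genome. Counting Adar1-2KO replicates 1 and 2 alone, 15 were absent (6.73%, against 2.28%). None of 112 such circles was absent from Adar2KO alone (0.103% genome-wide) and none of 130 from wild type alone (0.208%). The 13 came from Tanc1 (3 circles) and 1 each from Baz2b, Slc4a10, Rbms1, Fmnl2, Gm46740, Dcaf17, Scn2a, Ubr3, Upp2 and a region with no gene. These were low circles: the total over all libraries was 323 reads for the Tanc1 circle that passed, 74 for the next and 13 for the lowest. On ONT each of the 3 Tanc1 circles was read in 1 Adar1-2KO library, with 2 to 4 reads.

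Summed per host gene, 1 of 61 genes with circles in the interval passed in Adar1-2KO against wild type, where 0.0926% of 8635 genes passed genome-wide. It was Upp2, a uridine phosphorylase that splits uridine into uracil and ribose 1-phosphate, and it fell. Its circles had 336, 149 and 301 reads in Adar1-2KO, 534, 486 and 576 in Adar2KO, and 749, 494 and 390 in wild type. In CPM these were 80.2 ± 16.6 in Adar1-2KO, 203 ± 13 in Adar2KO and 243 ± 13 in wild type (SD, n = 3 each), and every Adar1-2KO library was below every other library. Every Adar2KO library was also below every wild type library, with a log2 fold change of -0.26 ± 0.23 (SE, adjusted p = 1). The log2 fold change was -1.60 ± 0.24 (SE) against wild type (edgeR adjusted p = 0.0201) and -1.34 ± 0.24 against Adar2KO (adjusted p = 0.0851). Leaving out Adar1-2KO replicate 3 gave an adjusted p of 0.0134 against wild type. The call was lost on leaving out Adar1-2KO replicate 2 (adjusted p = 0.0983) or any 1 Adar2KO or wild type library (0.0503 to 0.115). Over 13 alternative fits the log2 fold change against wild type lay between -1.76 and -1.49.

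No host gene passed in Adar1-2KO against Adar2KO (0.0463% genome-wide) or in Adar2KO against wild type (0.0695%), by edgeR. At an unadjusted p under 0.05 were 9 host genes in Adar1-2KO against wild type (7.69% genome-wide), 10 in Adar1-2KO against Adar2KO (6.62%) and 1 in Adar2KO against wild type (1.75%). DESeq2 called 2 host genes (0.625% genome-wide) in Adar1-2KO against wild type, 1 (0.428%) in Adar1-2KO against Adar2KO and 0 (0.162%) in Adar2KO against wild type. The libraries did not overlap for 4 higher (4.55% genome-wide) and 9 lower host genes (8.63%) in Adar1-2KO against wild type, for 5 higher (4.05%) and 6 lower (7.92%) in Adar1-2KO against Adar2KO, and for 2 higher (5.98%) and 4 lower (5.78%) in Adar2KO against wild type. Without Adar1-2KO replicate 3 there were 6 higher (13.8% genome-wide) and 14 lower (13.0%) against wild type. Against Adar2KO there were then 8 higher (11.9%) and 8 lower (11.8%).

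Of the 13 Upp2 circles tested on Illumina, 9 were lower in every Adar1-2KO library than in every wild type library (9.82% genome-wide). Lower than in every Adar2KO library were 7 (9.41%), and none was higher throughout (2.77% and 2.39%). These circles share exons and are not independent. Their reads also make up the host sum that passed, so these counts describe that call and are not separate evidence for it. The circle with most reads, from exons 2 to 7, had 65, 38 and 67 reads in Adar1-2KO, 124, 116 and 119 in Adar2KO and 156, 141 and 98 in wild type. On ONT it had 3, 6 and 7 reads in Adar1-2KO, 13, 18 and 21 in Adar2KO, and 11 and 13 in the 2 wild type libraries. In CPM on ONT that was 17.01 ± 9.3 in Adar1-2KO, 56.0 ± 9.4 in Adar2KO (n = 3 each) and 76.8 ± 12.4 in wild type (n = 2). Adar1-2KO lay below both other genotypes without overlap, but the circle did not pass on either platform (edgeR adjusted p = 0.718 on Illumina and 0.508 on ONT against wild type). Another 2 Upp2 circles were tested on ONT. That at chr2:58517093-58524913 had 7, 0 and 0 reads in Adar1-2KO, 15, 20 and 10 in Adar2KO and 7 and 6 in wild type, and in CPM Adar1-2KO was below both others without overlap. That at chr2:58522677-58524913 had 3, 5 and 0 reads in Adar1-2KO, 6, 4 and 6 in Adar2KO and 2 and 0 in wild type, and Adar1-2KO overlapped with both.

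On ONT 96 circles of the interval were tested, of 10367 in the genome, and 1 passed, in Adar1-2KO against Adar2KO (0.473% passed genome-wide). It was the circle of Rbms1, which encodes a single-stranded nucleic acid binding protein, and it rose. It had 69, 44 and 116 ONT reads in Adar1-2KO, 14, 6 and 13 in Adar2KO, and 5 and 7 in wild type. In CPM these were 218 ± 15 in Adar1-2KO, 36.2 ± 15.5 in Adar2KO (n = 3 each) and 38.5 ± 10.7 in wild type (n = 2). The log2 fold change was 2.58 ± 0.44 (SE) against Adar2KO (edgeR adjusted p = 0.0318) and 2.49 ± 0.53 against wild type (adjusted p = 0.315). The adjusted p against Adar2KO was 0.0142 without Adar1-2KO replicate 3, and on leaving out any other library it was 0.0772 to 0.196.

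The same Rbms1 circle had 604, 338 and 578 Illumina reads in Adar1-2KO, 141, 104 and 0 in Adar2KO, and 144, 66 and 0 in wild type. Every Adar1-2KO library was above every other library. The 2 libraries at 0 on Illumina, Adar2KO replicate 3 and wild type replicate 3, had 13 and 7 ONT reads of the circle, so a 0 on Illumina was not an absence of the circle. With these zeros the Illumina log2 fold change was 2.63 ± 1.35 (SE) against wild type (adjusted p = 0.783) and 2.23 ± 1.33 against Adar2KO (adjusted p = 0.953). CIRI2 also gave both libraries 0 reads of it.

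The host sum of Rbms1 had 635, 353 and 1053 reads in Adar1-2KO, 206, 140 and 85 in Adar2KO, and 205, 97 and 25 in wild type. It was higher in every Adar1-2KO library, with a log2 fold change of 2.24 ± 0.50 (SE) against wild type (adjusted p = 0.281), and did not pass. In Adar1-2KO replicate 3 alone, 430 of its reads came from another circle, chr2:60585760-60592490, which no other Illumina library listed and which ONT read 28 times in the same replicate. Another Rbms1 circle, chr2:60623033-60672816, had 0, 0 and 0 reads in Adar1-2KO, 11, 15 and 10 in Adar2KO and 8, 3 and 4 in wild type.

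No ONT circle of the interval passed in Adar1-2KO against wild type (0.0% genome-wide by edgeR) or in Adar2KO against wild type (0.00965%). At an unadjusted p under 0.05 were 10 ONT circles in Adar1-2KO against wild type (7.32% genome-wide), 12 in Adar1-2KO against Adar2KO (10.4%) and 2 in Adar2KO against wild type (4.21%). DESeq2 called 0 in Adar1-2KO against wild type (0.511% genome-wide), 2 in Adar1-2KO against Adar2KO (1.76%) and 0 in Adar2KO against wild type (0.106%). The ONT libraries did not overlap for 13 higher (10.7% genome-wide) and 15 lower circles (13.0%) in Adar1-2KO against wild type, for 10 higher (7.34%) and 13 lower (14.0%) in Adar1-2KO against Adar2KO, and for 14 higher (18.1%) and 9 lower (10.6%) in Adar2KO against wild type with its 2 wild type libraries. Without Adar1-2KO replicate 3 there were 24 higher (23.4% genome-wide) and 21 lower (17.1%) against wild type. Against Adar2KO there were then 16 higher (15.6%) and 20 lower (18.1%).

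Over the 89 circles tested on both platforms, the direction in Adar1-2KO against wild type was the same on Illumina and ONT for 69 (77.5%, against 69.9% of circles genome-wide), with Pearson's r of 0.568. In Adar1-2KO against Adar2KO it was the same for 69 (77.5%, against 69.9% genome-wide), with r of 0.587. In Adar2KO against wild type it was the same for 33 (37.1%, against 56.1% genome-wide), with r of -0.179. Genome-wide r was 0.366, 0.446 and 0.133 in the same order of comparisons. The points share libraries and genes and are a description only. Same-numbered libraries of the 2 platforms were taken to come from the same brain, so a shared direction is not replication in other animals. Adar1-2KO replicate 3 stood apart on ONT as well. Its rank correlation with other ONT libraries was 0.406 to 0.532, against 0.590 to 0.776 among those others. The 2 platforms did not always list the same circles: of 1074 pairs of a circle and a library with ONT reads, over the 265 circles tested on Illumina that ONT also listed, 60 (5.59%) had 0 Illumina reads.

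**Figure D3:**
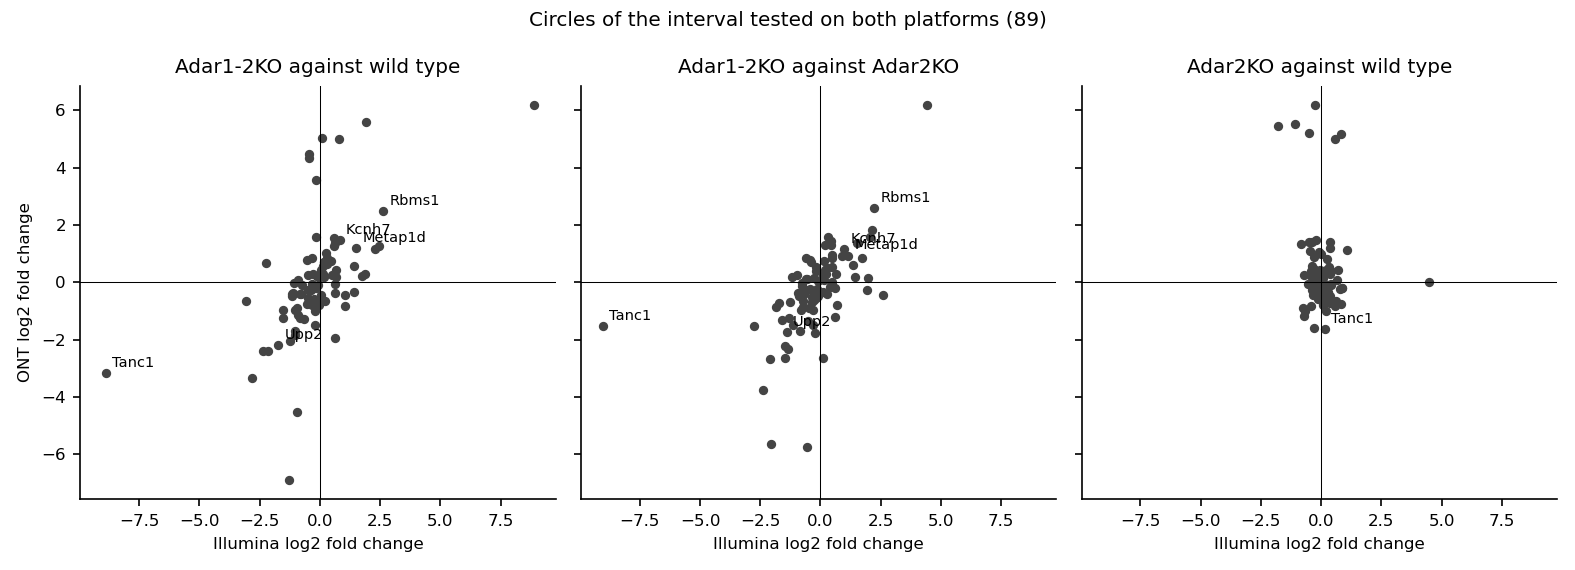
Log2 fold change on Illumina (horizontal) and ONT (vertical) of the 89 circles tested on both, 1 panel per comparison. In Adar1-2KO against wild type 69 circles have the same sign on both axes, and in Adar2KO against wild type 33 do.

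Metap1d encodes a mitochondrial methionine aminopeptidase. Its circle of exons 2 to 5 had 343, 195 and 986 Illumina reads in Adar1-2KO, 225, 59 and 241 in Adar2KO, and 131, 102 and 100 in wild type, and on ONT 26, 17 and 51 in Adar1-2KO, 17, 12 and 13 in Adar2KO, and 9 and 3 in wild type. In CPM on Illumina, Adar1-2KO lay above wild type without overlap, and overlapped with Adar2KO. In CPM on ONT, Adar1-2KO lay above both other genotypes, with 87.6 ± 12.1, against 46.1 ± 12.1 in Adar2KO and 37.7 ± 25.4 in wild type. Its log2 fold change against wild type was 1.51 ± 0.56 (SE) on Illumina (adjusted p = 0.718) and 1.21 ± 0.65 on ONT (adjusted p = 0.746).

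Along the chromosome, circles lower in every Adar1-2KO library than in every wild type library lay mostly before Ifih1. They numbered 56 of 402 (13.9%, against 9.82% of all tested circles), and circles higher throughout numbered 6 (1.49%, against 2.77%). Before Ifih1 39 of 189 tested circles were lower and 3 higher, with a median log2 fold change of -0.69. After Ifih1 17 of 213 were lower and 3 higher, with a median of 0.03. With Adar1-2KO replicate 3 left out the counts over the interval were 69 lower (17.2%, against 12.5%) and 53 higher (13.2%, against 11.4%), so the low number of higher circles rested on that library.

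Adar1-2KO against Adar2KO gave 49 lower (12.2%, against 9.41%) and 12 higher (2.99%, against 2.39%), of which 34 lower and 6 higher stood before Ifih1 and 15 lower and 6 higher after it. Leaving it out here gave 65 lower (16.2%, against 11.9%) and 42 higher (10.4%, against 10.1%). Adar2KO against wild type gave 16 lower (3.98%, against 5.23%) and 14 higher (3.48%, against 5.71%), with 8 lower and 7 higher on each side.

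**Figure D4:**
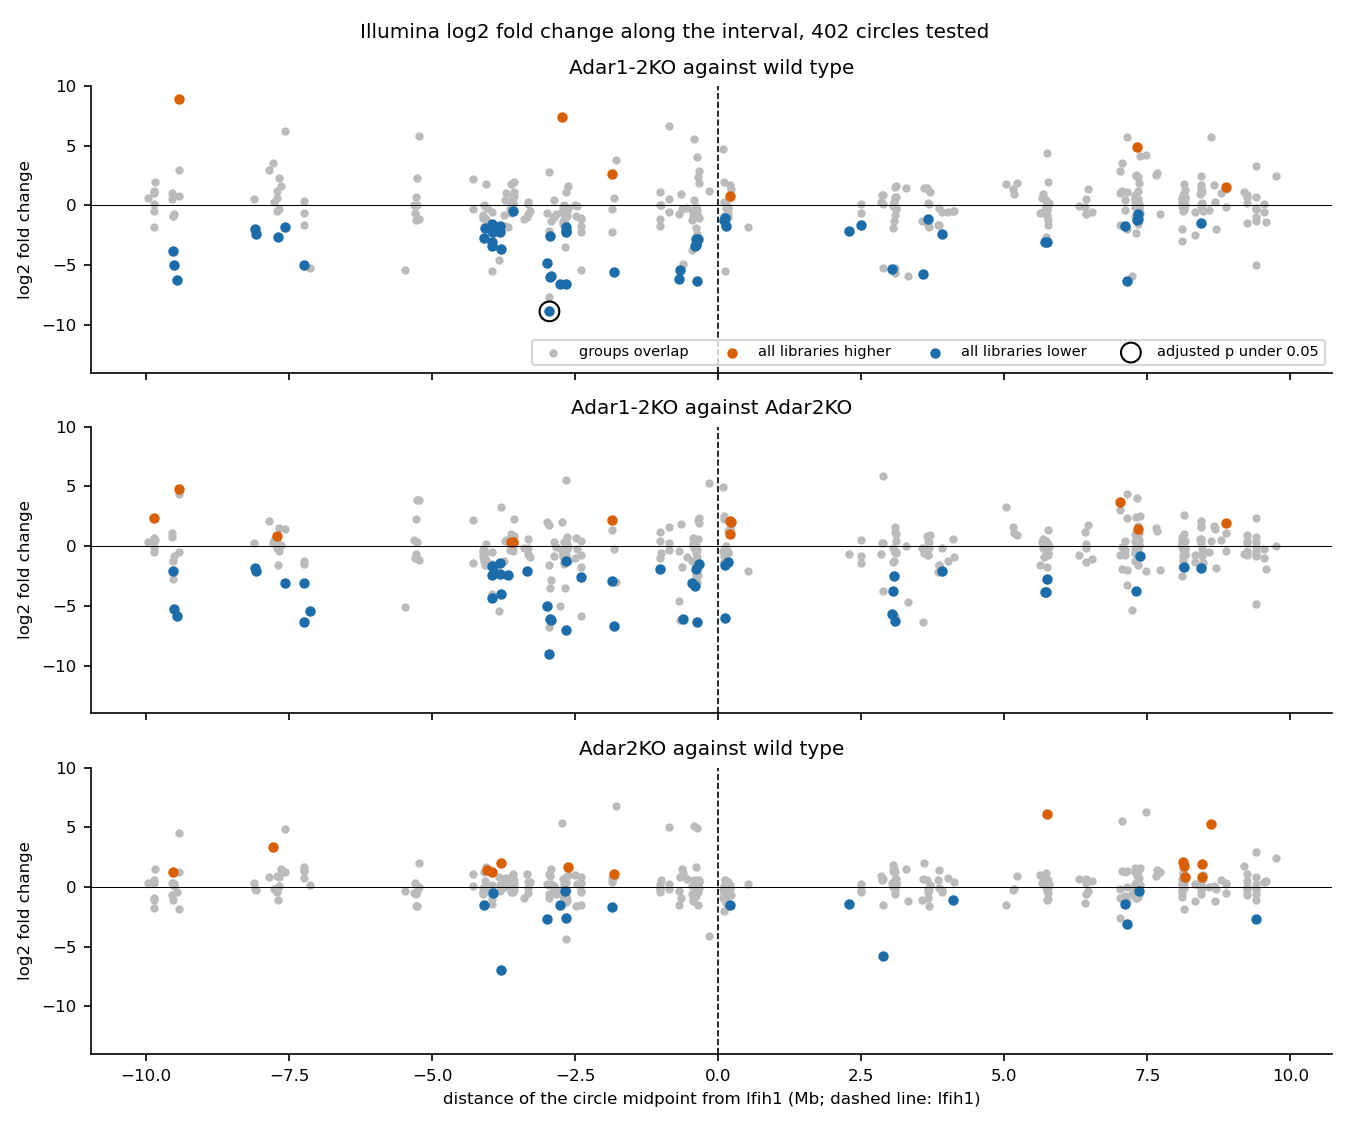
Illumina log2 fold change of the 402 tested circles against the distance of their midpoint from Ifih1 in Mb, 1 panel per comparison. Blue and orange points are circles whose libraries of the 2 genotypes do not overlap, lower and higher, and the ring marks the Tanc1 circle that passed. In both Adar1-2KO panels blue points lie more often left of the dashed line (39 and 34) than right of it (17 and 15).

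The stretch 2 to 4 Mb before Ifih1 held the most tested circles, 83, and 20 of them (24.1%, against 9.82% of all tested circles) were lower and 1 higher in Adar1-2KO than in wild type. The share was 23.8% (5 of 21) at 8 to 10 Mb before Ifih1 and 19.6% (9 of 46) in the last 2 Mb before it. Of the 83, 16 were lower (19.3%, against 9.41% of all tested circles) and 2 higher (against 2.39%) than in Adar2KO. In Adar2KO against wild type 6 were lower (7.23%, against 5.23%) and 3 higher (against 5.71%). In replicates 1 and 2 of Adar1-2KO alone the counts against wild type were 24 lower (against 12.5% of all tested circles) and 8 higher (against 11.4%). The 20 came from Upp2 (9 of 13 tested circles), Tanc1 (5 of 13), Baz2b (4 of 28), Wdsub1 (1 of 1) and Ccdc148 (1 of 16). Most were thus circles of Upp2 and Tanc1, the hosts of the calls above, so the share of this stretch is not separate from those calls. Baz2b, a bromodomain protein of chromatin remodelling complexes, contributed a circle at chr2:59798971-59809045 with 0, 0 and 0 reads in Adar1-2KO, 26, 17 and 2 in Adar2KO and 9, 11 and 9 in wild type. Pkp4, a plakophilin of cell junctions had none among 6 tested circles. Slc4a10, a sodium bicarbonate transporter whose tested circles lay 0.341 to 0.541 Mb before it, had 6 of 25 lower. Kcnh7, a potassium channel subunit with circles 0.082 to 0.22 Mb after it, had 3 of 22 lower and 1 higher.

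The Kcnh7 circle of exons 4 to 6 was the higher one. It had 287, 250 and 410 Illumina reads in Adar1-2KO, 132, 128 and 127 in Adar2KO, and 216, 121 and 71 in wild type, or 104 ± 13 CPM in Adar1-2KO, 52.9 ± 7.1 in Adar2KO and 59.2 ± 12.9 in wild type. On ONT it had 24, 23 and 98 reads in Adar1-2KO, 12, 20 and 20 in Adar2KO, and 3 and 11 in wild type. It did not pass on either platform (adjusted p = 0.821 on Illumina and 0.687 on ONT against wild type). Tank encodes an adaptor of innate immune signalling and lies 1.017 Mb before Ifih1. It had 591, 291 and 406 reads of its main circle in Adar1-2KO, 178, 28 and 641 in Adar2KO and 652, 343 and 48 in wild type, with overlapping ranges.

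Grouped by role, none of the host genes but Upp2 passed. Of the 5 sodium channel genes, all 5 were tested and none passed; all 5 had a fitted log2 fold change below 0 in Adar1-2KO against wild type, with a median of -0.79 against -0.07 over all tested genes, of which 46.7% were above 0. In Adar2KO against wild type 1 of the 5 was above 0, with a median of -0.33 against 0.0092, and in Adar1-2KO against Adar2KO 1 of the 5, with a median of -0.28 against -0.098. Scn1a, whose circles summed to 253, 155 and 226 reads in Adar1-2KO, 237, 227 and 220 in Adar2KO, and 404, 282 and 126 in wild type, had -0.79 ± 0.32 (SE, adjusted p = 0.59). Of 14 tested genes of synapse, adhesion, cytoskeleton and signalling none passed, with a median of -0.31. Of 10 tested genes of nucleus and RNA none passed, with a median of -0.25. Among them Nr4a2, a nuclear receptor, had 0, 0 and 0 reads in Adar1-2KO, 0, 9 and 2 in Adar2KO, and 5, 9 and 3 in wild type. Against a floor of 3 reads, and with the Illumina zeros taken as true counts, that was 8.08-fold lower in Adar1-2KO than in wild type (edgeR adjusted p = 0.59). The reads were few. Of 7 tested genes of sugar, lipid and energy metabolism 1 fell, Upp2, and 6 had values above 0, such as Metap1d with 1.35 ± 0.37 (SE). Of 5 tested ubiquitin and proteasome genes, 5 of other channels and transporters, 5 of trafficking and motors, 4 of cilia and 1 of innate immunity none passed. In Adar1-2KO against wild type their medians were 0.081, 0.41, 0.24, 1.13 and 0.044 in that order. Above 0 were 4, 4, 4, 3 and 1 of these genes. In Adar2KO against wild type and in Adar1-2KO against Adar2KO none of the genes in these groups passed.

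**Figure D5:**
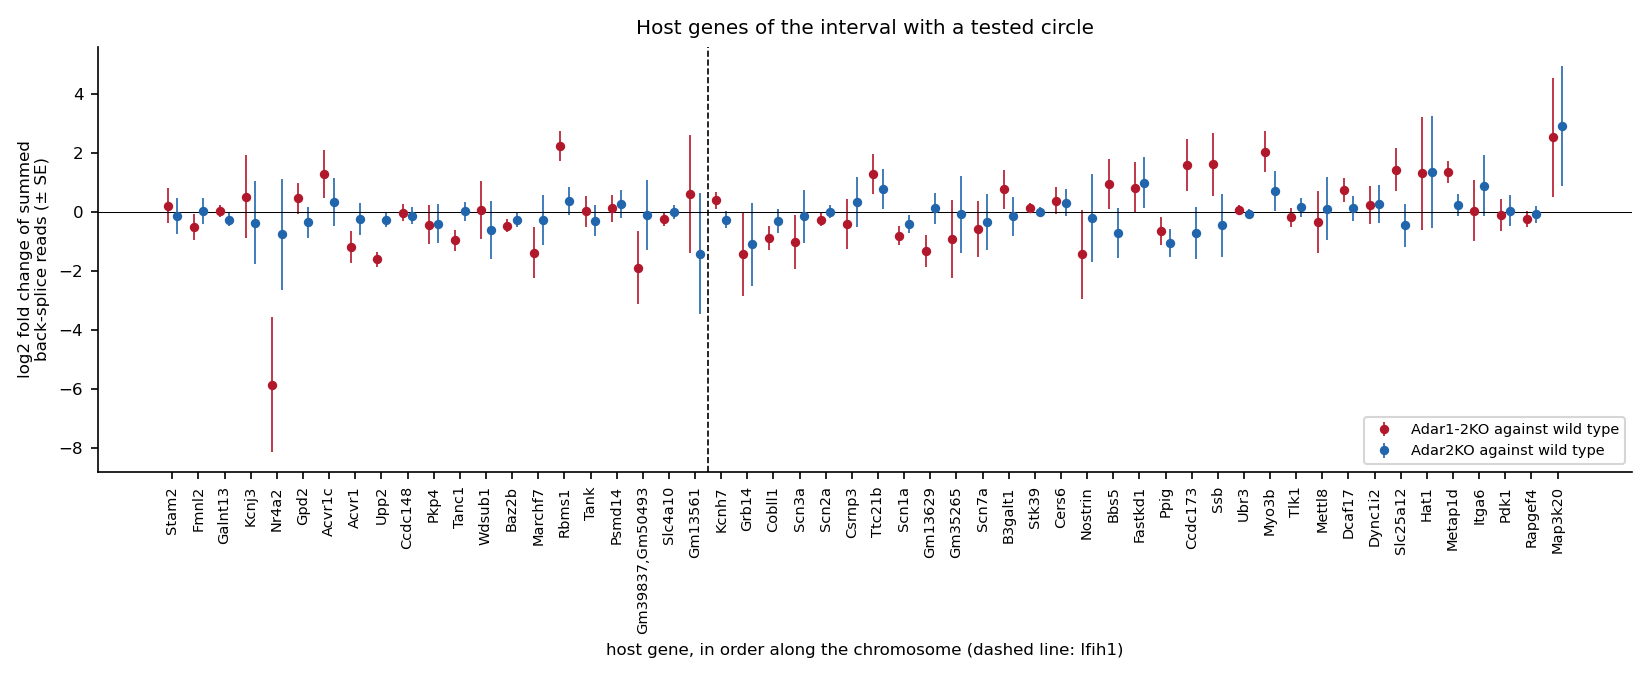
Log2 fold change (± SE) of summed back-splice reads of 54 host genes with a tested circle in the interval, in order along the chromosome, for Adar1-2KO against wild type and Adar2KO against wild type. Upp2, at -1.60 in Adar1-2KO and -0.26 in Adar2KO, is the gene that passed.

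The share of a junction that was circular could be tested for 61 circles of the interval, those with at least 20 back-splice and forward-splice reads together in every Illumina library. By limma none passed in Adar1-2KO against wild type (0.0% genome-wide), in Adar2KO against wild type (0.0157%) or in Adar1-2KO against Adar2KO (0.0787%). At an unadjusted p under 0.05 these were 3 (4.82% genome-wide), 1 (2.88%) and 3 (5.32%) circles. Forward-splice reads were erratic after RNase R: 45 of the 61 circles had 0 forward reads in some library, while the highest library of these had a median of 517. The standard error had a median of 2.31 on the log2 scale and was 0.725 at the lowest.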

How the data were processed

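Per the labels' protocols, linear RNA of whole brain was digested with RNase R, and circles were copied with random hexamers and sequenced on Illumina and ONT. The submitters' processing notes name BWA 0.7.17, CIRIquant 1.1.2 and the build GRCm39. The deposited CIRIquant tables hold counts of back-splice and forward-splice reads, the deposited CIRI2 and ONT tables counts of reads per circle, the ONT tables from 2 reads upward. The authors' deposited comparison tables list the log2 fold change with its p-value, raw and adjusted. In the Adar1-2KO CIRIquant tables the values stand 1 column right of their headers, which was corrected. The CIRI2 table of Adar1-2KO replicate 1 was not used here.

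Features reaching 5 reads in 3 or more libraries (circles and sums per host gene) were fitted over the whole genome with edgeR 4.0.16 (TMM, quasi-likelihood, 1 fit of all libraries of a platform). DESeq2 1.42.0 was an alternative. Host sums take all circles of a gene name, and predicted genes sharing a locus with 1 other gene were set aside. Standard errors are the log2 fold change over the root of F. CPM use TMM-scaled library sizes. Results without Adar1-2KO replicate 3 for absent circles and for non-overlapping circles and host genes were added after seeing the data. For the circular share, limma 3.58.1 was fitted to the log2 ratio of back-splice to forward-splice reads after adding 0.5 to each. The 1 Ifih1 circle left out had 2 reads. Named circles are those that passed, the 6 circles and 4 host genes with the lowest p per comparison, the top circle of preset hosts, the 10 most abundant in wild type and those present in all libraries of 1 genotype and none of another; others were chosen after their values were seen. Members, lists and tests were chosen with earlier results of these data known. Counting error alone is covered by folds against a floor. The tests were checked on simulated data. Results of 1 host gene are not reported here.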

Additional observations from a re-analysis of the deposited data

How the results depend on the processing

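The counts of calls were small and moved with the settings. For Illumina circles in Adar1-2KO against wild type (1 called), DESeq2 gave 5, no filter on low counts 7, and DESeq2 size factors in edgeR and a filter of at least 10 reads each gave 0. In Adar1-2KO against Adar2KO (0 called), DESeq2 gave 5, no filter 7, and CIRI2 reads, the libraries of the most common flow cell and a threshold of 0.1 each gave 1. The flow cell value sets 1 library against 1, with the spread taken from wild type, and is not a replicated comparison. For host genes, DESeq2 gave 2 and no filter 3 against wild type (1 called), and DESeq2 gave 1, no filter 2 and a threshold of 0.1 gave 1 against Adar2KO (0 called). On ONT, DESeq2 gave 2 in Adar1-2KO against Adar2KO (1 called). Leaving out 1 library at a time gave 0 to 1 Illumina circles against wild type and 0 to 1 against Adar2KO, 0 to 1 host genes against wild type, 0 to 1 ONT circles against Adar2KO, and 0 to 2 circular shares in Adar1-2KO against wild type, 0 to 1 in each of the other comparisons. The cause was not tested.

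Replicate numbers did not pair the samples: same-numbered libraries correlated between -0.029 and 0.018 on Illumina (9 pairs) and between -0.032 and 0.061 on ONT (7 pairs). With the replicate number as a block, the counts of Illumina circles and host genes in Adar1-2KO against wild type and of ONT circles in Adar1-2KO against Adar2KO, each 1 in the main fit, were 0. Of the log2 fold changes recomputed, those of named circles and host genes with the lowest p or printed above, direction turned for the Stk39 circle of exons 2 to 5 in Adar1-2KO against wild type (-0.035 on the common flow cell, -0.11 to 0.27 on leaving out 1 library, lowest without Adar1-2KO replicate 3) and for the Tanc1 circle in Adar2KO against wild type (-0.12 to 0.58 on leaving out 1 library, lowest without wild type replicate 1). Neither passed in any of these. Depth limits single circles: many rest on under 20 reads per library, and a 0 on Illumina can stand beside ONT reads.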
